A study of Drosophila melanogaster with 8 samples.

Results

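The cytoplasmic ribosomal protein genes of Drosophila were taken as all rows of the deposited expression table whose gene symbol begins with RpL or RpS, with case respected, so that the mitochondrial mRp genes stayed out. The rule found 92 of the 17807 genes in the table, 54 named for the large subunit and 38 for the small subunit. The rule used names only and no measured value. The values come from total RNA sequencing of the central nervous system dissected from first instar larvae of Drosophila melanogaster kept at 25 °C. There were 3 genotypes, all picked as viable homozygotes by a visible marker. Canton-S, the wild-type strain, had 3 libraries. The single mutant elav5 carries a mutant allele of elav and had 2 libraries, and the double mutant elav5/fne, which lacks normal function of both elav and fne, had 3 libraries. elav and fne encode RNA-binding proteins of the ELAV/Hu family, which act on splicing and 3′ end choice of neuronal transcripts. The labels do not say how many larvae went into a library, and name no separate culture for each library, so the p-values measure the spread between libraries, which may in part be technical.

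The ribosome joins a large and a small subunit, each built of ribosomal RNA and a fixed set of proteins that are needed in about equal numbers. Their mRNAs are short, abundant and used in all cell types, and in animals their translation is raised by the TOR pathway. In flies, loss of 1 copy of many of these genes gives the Minute phenotype of slow growth and short bristles, and several genes have a second copy that is used mainly in the germ line.

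Each library held 30038106 to 38056274 reads in genes, and each value is in CPM, in which all genes of a library share a fixed sum, so that 3 reads correspond to 0.0788 to 0.0999 CPM. The targeted genes followed the labels. elav measured 599 to 620.3 CPM in Canton-S, 24.4 and 33.4 CPM in elav5 and 53.2 to 61.0 CPM in elav5/fne. fne measured 960 to 1045 CPM in Canton-S, 938 and 1129 CPM in elav5 and 127 to 179 CPM in elav5/fne. The libraries also differed in markers of cell types, given here as summed levels of each list. The 8 neuronal markers summed to 12200 to 12930 CPM in Canton-S, 11460 to 11840 CPM in elav5 and 5231 to 6461 CPM in elav5/fne, and all 8 fell in elav5/fne against Canton-S. All 6 neuroblast markers rose there, from sums of 193 to 205 CPM to sums of 866 to 1121 CPM, with 242 and 277 CPM in elav5. The 7 glial markers summed to 3089 to 3380 CPM in Canton-S, 4170 and 4405 CPM in elav5 and 2595 to 3200 CPM in elav5/fne, with 2 called higher in elav5 against Canton-S. Of the lists for other tissues, the 6 muscle markers stood at 699 to 942 CPM in Canton-S, at 1582 and 436 CPM in elav5 replicates 1 and 2, and at 1634, 3724 and 8793 CPM in elav5/fne replicates 1, 2 and 3. The 5 hemocyte markers stood at 358 to 558 CPM in Canton-S, 208 and 15.3 CPM in elav5, and 423 to 1149 CPM in elav5/fne. None of the neuronal, neuroblast, glial, muscle or hemocyte markers was at 0 in any library. In bulk tissue, fewer cells of a type and less RNA per cell cannot be told apart. The part these marker differences have in the results below was not tested.

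In Canton-S, most ribosomal protein genes stood above 100 CPM, and the large and the small subunit had similar median levels per length. Of the 92 genes, 79 had a mean of at least 100 CPM in Canton-S, 48 of the large and 31 of the small subunit. On a scale of CPM per kilobase of merged exons, the median level of the large subunit genes was 656 and that of the small subunit genes 682, with quartiles of 475 to 898 and 552 to 833. RpL41, which encodes a peptide of the large subunit far shorter than any other ribosomal protein, had the highest level per kilobase, 2756 ± 129 (SD, n = 3). Other high levels of the large subunit were those of RpL39, a small protein of the peptide exit tunnel, at 1192 ± 63.8, RpL23 at 1142 ± 77.5 and RpL27A at 1136 ± 16.96 CPM per exonic kilobase (SD, n = 3). From RpL39 to RpL23 and from RpL23 to RpL27A the levels differed by less than 1 SD, whereas RpL41 stood far above them. The highest small subunit gene was RpS27A, which is made as a fusion with ubiquitin, at 1265 ± 60.5 CPM per exonic kilobase (SD, n = 3). It was followed by RpS18 at 1174 ± 40.8, RpS7 at 976 ± 36.2, RpS30 at 926 ± 24.3 and RpS23 at 902 ± 51.5, and RpS30 and RpS23 did not differ beyond their SD. With the length of the canonical transcript in place of merged exons, a setting chosen after the data were seen, the order changed: RpS15 at 1140, RpS7 at 1137 and RpS6 at 1077 CPM per kilobase followed RpS27A and RpS18, ahead of RpS30 at 959, and RpL36 at 1145 came before RpL23 and RpL27A. RpS27A shares exonic bases on the same strand with Ip259, so part of its reads may belong to that gene, and RpL39 overlaps RpL12 by a few exonic bases on the opposite strand.

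In the double mutant, the cytoplasmic ribosomal protein genes rose almost as one block. Of the 92 genes, 85 reached 1 CPM in at least 2 libraries and were tested. Of these 85 genes, 82 rose in elav5/fne against Canton-S in limma at an adjusted p under 0.05, 1 fell (RpS19b, admitted to the test only through Canton-S) and 2 were not called, where 32.5% of all 10575 genes tested were called higher and 26.7% lower. The libraries of the 2 genotypes did not overlap for the same number, 82 higher, against 37.6% of all genes tested. The median log2 change of the 85 genes was 0.69, with quartiles of 0.61 and 0.76, beside a median of 0.07 over all genes tested. Together the 92 genes took 4.82, 5.16 and 4.96% of the reads in Canton-S and 8.20, 7.94 and 7.92% in elav5/fne. The means were 4.98 ± 0.17% and 8.02 ± 0.15% (SD, n = 3), a difference many times either SD.

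**Figure D1:**
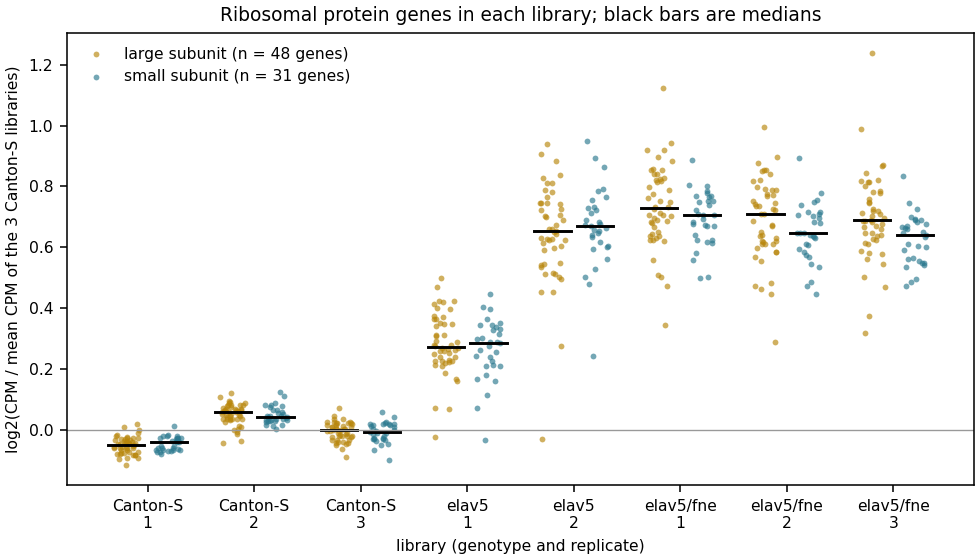
Level of each of the 79 ribosomal protein genes with a mean of at least 100 CPM in Canton-S, by library, as log2 of its CPM over its Canton-S mean, with large and small subunit genes apart and medians as black bars. All 79 genes lay above every Canton-S library in each of the 3 elav5/fne libraries, whose medians were 0.71, 0.67 and 0.67, while the medians of elav5 replicates 1 and 2 were 0.28 and 0.66.

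Among the large subunit proteins, RpL15 and RpL23A rose the most in the double mutant. RpL15 (3L, 27267255 to 27268445, plus strand) measured 785, 759.7 and 793 CPM in the Canton-S libraries, 934 and 1307 CPM in those of elav5 and 1698, 1553 and 1547 CPM in those of elav5/fne. No elav5/fne library was near a Canton-S library, and the log2 change was 1.04 ± 0.12 (SE, adjusted p = 2.46e-04, limma). RpL23A, whose protein lies at the exit of the peptide tunnel, measured 202, 214 and 209 CPM in the Canton-S libraries, 266 and 316 CPM in those of elav5 and 401, 377 and 492 CPM in those of elav5/fne. Its change was 1.01 ± 0.11 (SE, adjusted p = 1.67e-04, limma), with elav5/fne replicate 3 the highest. RpL23A (3L, 1666288 to 1668654, minus strand) shares exonic bases with Uhg7 on the same strand and CG7974 on the other, which were at 0 and at 5.45 to 10.4 CPM. RpL26 and RpL28 followed with log2 changes of 0.89 ± 0.11 and 0.88 ± 0.10 (SE).

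RpL3 and RpL4, large proteins that reach toward the catalytic centre and the exit tunnel, gave very even libraries. RpL3 measured 1318, 1352 and 1281 CPM in the Canton-S libraries, 1501 and 1596 CPM in those of elav5 and 2189, 2192 and 2326 CPM in those of elav5/fne. Its log2 change in the double mutant was 0.76 ± 0.08 (SE, adjusted p = 1.02e-04, limma), and its elav5 libraries lay between the other genotypes without overlap. RpL4 measured 858, 914 and 903 CPM in the Canton-S libraries, 1071 and 1222 CPM in those of elav5 and 1598, 1609 and 1600 CPM in those of elav5/fne, a log2 change of 0.85 ± 0.08 (SE, adjusted p = 6.30e-05, limma) in the double mutant. RpL5 and RpL11, which bind 5S ribosomal RNA as one particle, rose by 0.69 ± 0.12 and 0.62 ± 0.10 (SE) on the log2 scale.

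The proteins of the stalk, which recruits translation factors to the large subunit, rose together. RpLP0, the base of the stalk, measured 892, 1051 and 953 CPM in the Canton-S libraries, 1151 and 1406 CPM in those of elav5 and 1500, 1476 and 1473 CPM in those of elav5/fne, a log2 change of 0.62 ± 0.10 (SE, adjusted p = 0.00125, limma) in the double mutant. RpLP1 and RpLP2, which bind to it as dimers, changed by 0.77 ± 0.09 and 0.79 ± 0.10 (SE). In each of the stalk genes all elav5/fne libraries lay above all Canton-S libraries. RpL40, which like RpS27A is made as a fusion with ubiquitin, measured 584, 619 and 595 CPM in the Canton-S libraries, 718 and 1020 CPM in those of elav5 and 854, 827 and 831 CPM in those of elav5/fne. RpL40 changed by 0.48 ± 0.12 (SE, adjusted p = 0.0105, limma) and RpS27A by 0.56 ± 0.12 (SE, adjusted p = 0.00531, limma) in the double mutant.

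The smallest rises of the large subunit were in RpL29, RpL41 and RpL34a. RpL29 measured 356, 388 and 355 CPM in the Canton-S libraries, 455 and 614 CPM in those of elav5 and 466, 448 and 458 CPM in those of elav5/fne, a log2 change of 0.32 ± 0.11 (SE, adjusted p = 0.0356, limma) in the double mutant, and elav5 replicate 2 was the highest of all 8 libraries. RpL41 measured 865, 929 and 852 CPM in the Canton-S libraries, 868 and 1329 CPM in those of elav5 and 1224, 1201 and 1142 CPM in those of elav5/fne and changed by 0.43 ± 0.15 (SE, adjusted p = 0.0339, limma). Neither call held under all settings: RpL29 was called in 11 of 22 alternatives and RpL41 in 13 of 22, always with a positive change. Both have short canonical transcripts, of 0.389 kb in RpL29 and 0.32 kb in RpL41. Log2 length and the log2 change in elav5/fne had a Pearson r of 0.38 and a Spearman rho of 0.34 across the 79 genes of at least 100 CPM. Across 2138 other protein-coding genes of at least 100 CPM, r was 0.07 and rho 0.08. The part of length in these smaller rises was not tested.

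Among the small subunit proteins, RpS10b rose the most. RpS10b measured 383, 415 and 408 CPM in the Canton-S libraries, 508 and 637 CPM in those of elav5 and 743, 747 and 716 CPM in those of elav5/fne, a log2 change of 0.87 ± 0.09 (SE, adjusted p = 1.31e-04, limma), and its 3 genotypes did not overlap. RpS3, a protein at the mRNA entry channel, measured 798, 832 and 809.7 CPM in the Canton-S libraries, 1046 and 1373 CPM in those of elav5 and 1395, 1307 and 1285 CPM in those of elav5/fne and changed by 0.71 ± 0.11 (SE, adjusted p = 8.60e-04, limma). RpS6, the substrate after which S6 kinase is named, measured 985, 1052 and 1064 CPM in the Canton-S libraries, 1314 and 1659 CPM in those of elav5 and 1728, 1688 and 1573 CPM in those of elav5/fne and changed by 0.69 ± 0.10 (SE, adjusted p = 8.61e-04, limma). In both, elav5 replicate 2 reached the range of the double mutant and replicate 1 did not. The smallest called rises were those of RpS15Ab, a low second copy, at 0.39 ± 0.14, and RpS3A at 0.47 ± 0.11 (SE). RpS15Ab kept its call in 7 of 22 alternatives.

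**Figure D2:**
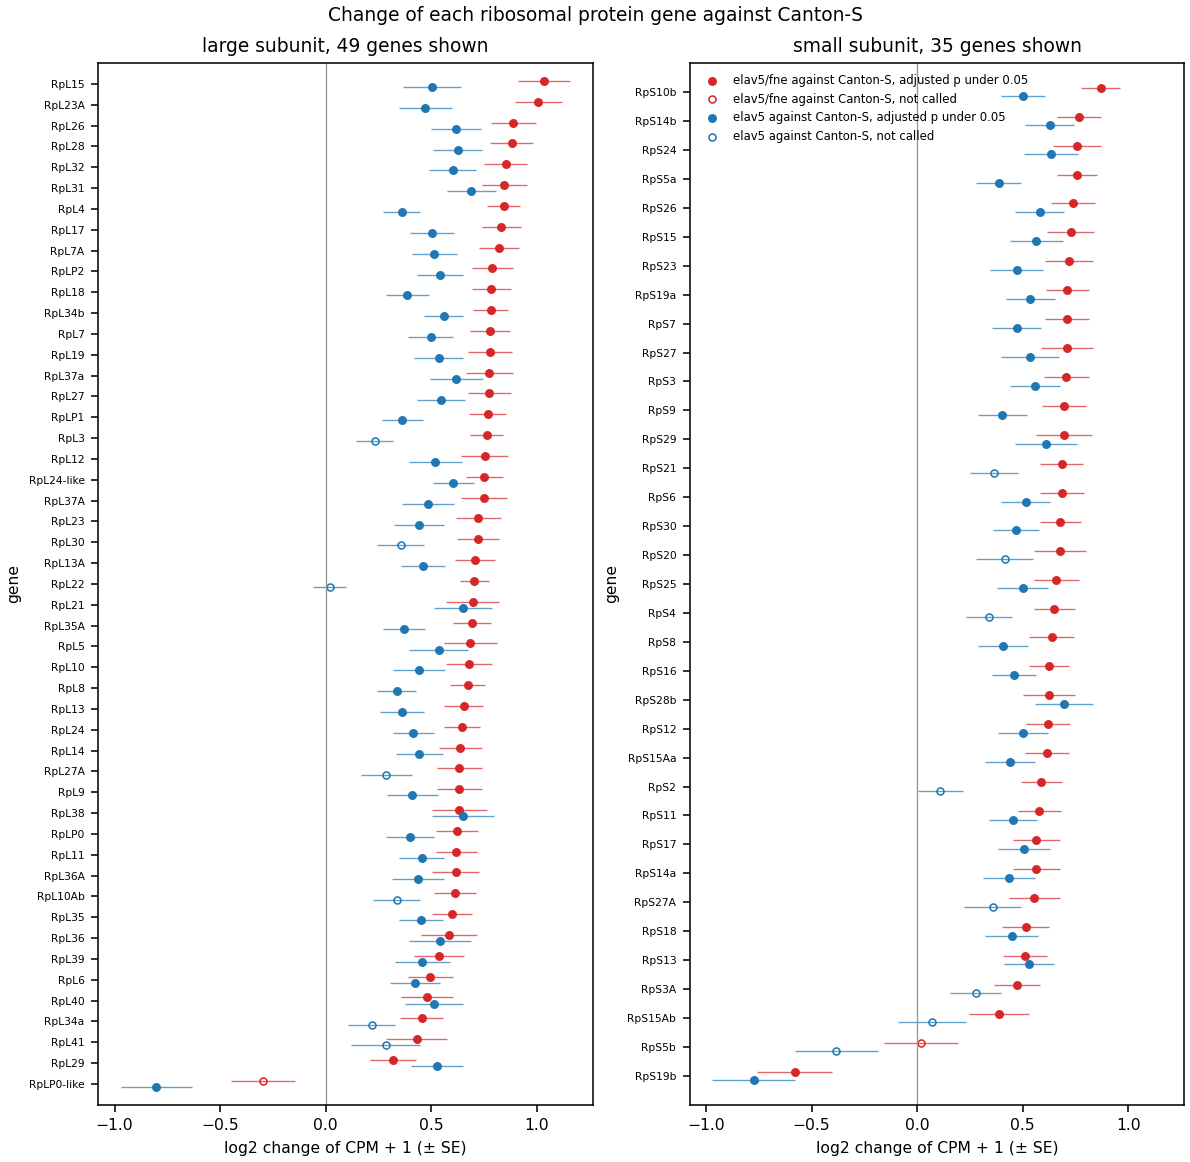
Log2 change of CPM + 1 with its standard error for 84 of the 85 genes tested, elav5/fne against Canton-S in red and elav5 against Canton-S in blue, with filled points for an adjusted p under 0.05 in limma. The 81 red points called higher lie between 0.32 and 1.04, most of them to the right of the blue points of the same genes, and RpLP0-like, RpS5b and RpS19b stand apart at the bottom.

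In the single mutant the genes were also higher, but the pair of libraries differed in how much. In elav5 against Canton-S, 68 of 85 genes were called higher, 2 lower and 15 were not called (limma, adjusted p under 0.05), where 8.29% of all genes tested were called higher and 11.8% lower. For 77 genes both elav5 libraries lay above all Canton-S libraries, against 22.9% of all genes tested. The median log2 change was 0.46, beside -0.04 over all genes tested. The comparisons of both mutants with Canton-S share the 3 Canton-S libraries. The largest changes were in RpS28b at 0.70 ± 0.14, RpL31 at 0.69 ± 0.12, RpL38 at 0.65 ± 0.15, RpL21 at 0.65 ± 0.14 and RpS24 at 0.63 ± 0.13 (SE). RpS28b measured 503, 534 and 500.2 CPM in the Canton-S libraries, 698 and 989.6 CPM in those of elav5 and 816, 796 and 759 CPM in those of elav5/fne. RpL38, known in mouse for a role in the translation of Hox mRNAs, measured 165, 180.3 and 165 CPM in the Canton-S libraries, 220.3 and 326 CPM in those of elav5 and 263, 262 and 269 CPM in those of elav5/fne. In both genes elav5 replicate 2 was the highest of all 8 libraries. The genes not called included RpL22 at 0.02 ± 0.08, RpS2 at 0.11 ± 0.11 and RpL3 at 0.23 ± 0.09 (SE), with adjusted p of 0.876, 0.509 and 0.0967 in limma.

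The 92 genes took 6.01% of the reads in elav5 replicate 1 and 7.79% in replicate 2, so that replicate 1 lay nearer to Canton-S and replicate 2 nearer to the double mutant. Of the 79 genes of at least 100 CPM, 77 in replicate 1 and 78 in replicate 2 lay above all Canton-S libraries. Replicate 2 exceeded replicate 1 in 78 of these 79 genes, with a median log2 ratio of 0.38 and a range from -0.10 in RpL22 to 0.61 in RpL41. Without elav5 replicate 2 the median log2 change against Canton-S was 0.27, and without elav5 replicate 1 it was 0.65. The number called higher was 6 without Canton-S replicate 1, 18 without Canton-S replicate 2, 22 without Canton-S replicate 3, 44 without elav5/fne replicate 1 and 38 without elav5/fne replicate 2, while the median stayed between 0.45 and 0.49 in these fits. In the same order, 375, 479, 649, 753 and 631 of all genes tested were called higher, of 10408 to 10550 genes.

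The elav5 libraries also differed by transcript length. Over the 79 genes, log2 length of the canonical transcript and the log2 ratio of replicate 2 to replicate 1 had a Pearson r of -0.34 and a Spearman rho of -0.39. Over 2138 other protein-coding genes of at least 100 CPM, which share the same pair of libraries, r was -0.57 and rho -0.67. These are descriptions across genes, which are not independent replicates. Ribosomal protein transcripts are short, and between 0.75 and 1 kb the 20 ribosomal protein genes had median log2 levels relative to Canton-S of 0.29 in replicate 1 and 0.67 in replicate 2, while the 20 other genes of that length had -0.08 and 0.36. Between 0.5 and 0.75 kb the 27 ribosomal protein genes had 0.27 and 0.67 and 23 other genes -0.18 and 0.16, and between 1 and 1.5 kb the 26 ribosomal protein genes had 0.28 and 0.64 and 95 other genes -0.10 and 0.10. In the elav5/fne libraries the medians between 0.75 and 1 kb were 0.75, 0.66 and 0.65 for the ribosomal protein genes and -0.15, -0.16 and -0.07 for the other genes, and between 1 and 1.5 kb they were 0.75, 0.72 and 0.70 and -0.40, -0.39 and -0.35. Above 3 kb, the 1443 other genes had a median log2 ratio of replicate 2 to replicate 1 of -0.18, and RpL5, the single ribosomal protein gene there, had 0.49.

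**Figure D3:**
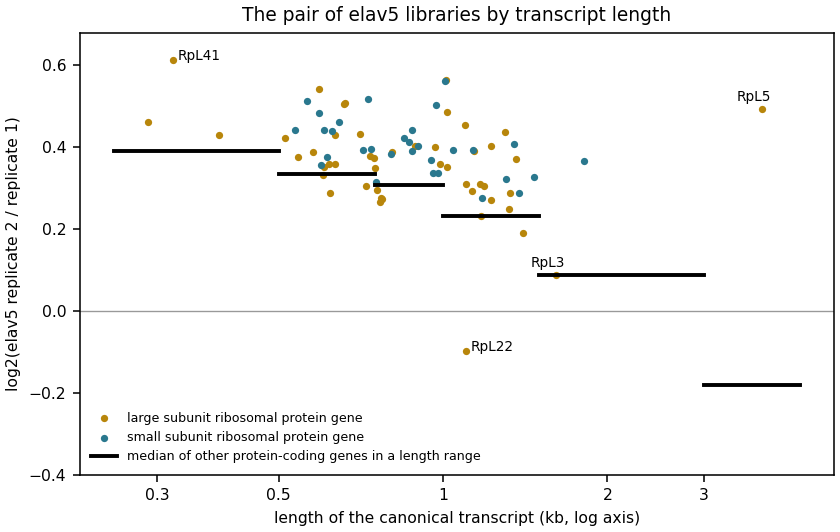
Log2 ratio of elav5 replicate 2 to replicate 1 for the 79 ribosomal protein genes of at least 100 CPM against the length of the canonical transcript in kilobases (log axis), with the median of other protein-coding genes in each length range as black lines. Of the 79 ribosomal protein genes 78 lie above 0 with a median of 0.38, the medians of the other genes go from 0.39 in the shortest range to 0.09 between 1.5 and 3 kb and -0.18 above 3 kb (a range that runs past the end of the line drawn), and RpL22 lies below 0.

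Between the mutants, a minority of the genes were called with all 8 libraries, and the number called depended strongly on the libraries used. In elav5/fne against elav5, 17 of 85 genes were called higher, 0 lower and 68 were not called (limma, adjusted p under 0.05), where 26.8% of all genes tested were called higher and 16.7% lower. The libraries did not overlap for 40 genes, all higher in the double mutant, against 39.5% of all genes tested, so the share of calls was below the background for limma and near it for non-overlap. Beside the 0 called lower in limma, 0 of the 85 were lower at an unadjusted p under 0.05, edgeR called 0 lower and DESeq2 called 1. The median log2 change was 0.22 beside 0.14 over all genes tested. The number called higher was 8 without elav5/fne replicate 1 or without elav5/fne replicate 2, where 2779 of 10518 and 2296 of 10408 genes tested were called higher. The difference between the mutants depended on the elav5 library. Over the 79 genes of at least 100 CPM, median log2 levels relative to Canton-S were 0.28 and 0.66 in elav5 replicates 1 and 2. They were 0.71, 0.67 and 0.67 in elav5/fne.

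RpL22 was the gene that most separated the mutants. It encodes a protein at the surface of the large subunit. RpL22 (X, 762560 to 765130, minus strand) measured 349.7, 370.2 and 366 CPM in the Canton-S libraries, 379.7 and 355 CPM in those of elav5 and 585, 630 and 559.8 CPM in those of elav5/fne. The elav5 libraries lay within or just above the Canton-S range, and all 3 elav5/fne libraries lay far above both. The log2 change between the mutants was 0.68 ± 0.08 (SE, adjusted p = 3.23e-04, limma), and it was called under all 22 alternatives, with values from 0.56 to 0.73. RpL22 shares exonic bases on the same strand with lncRNA:CR42491, which stood at 14.9 to 31.1 CPM. Next came RpL23A at 0.54 ± 0.12, RpL15 at 0.53 ± 0.14, RpL3 at 0.53 ± 0.09 and RpLP0-like at 0.51 ± 0.17 (SE), all called higher in the double mutant. RpL3 (adjusted p = 0.00197, limma) was called under all 22 alternatives. RpS2, a protein known for effects on decoding accuracy, measured 656, 751 and 657 CPM in the Canton-S libraries, 673 and 815 CPM in those of elav5 and 1060, 1040 and 1002 CPM in those of elav5/fne, a change of 0.48 ± 0.11 (SE, adjusted p = 0.00876, limma) between the mutants. At the other end stood RpL29 at -0.21 ± 0.12, RpS28b at -0.07 ± 0.14, RpL40 at -0.03 ± 0.14, RpL38 at -0.02 ± 0.15 and RpS13 at -0.02 ± 0.12 (SE), none of which was called.

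The large and the small subunit had similar median changes. In elav5/fne against Canton-S, 49 of 50 large and 33 of 35 small subunit genes were called higher, beside 32.5% of all genes tested. The median log2 changes were 0.70 and 0.66. In elav5 against Canton-S the counts were 42 of 50 and 26 of 35, beside 8.29% of all genes tested, with medians of 0.46 and 0.47. Between the mutants 14 of 50 large and 3 of 35 small subunit genes were called higher, with medians of 0.24 and 0.18. Of all genes tested 26.8% were called higher there, so the large subunit was near that share and the small subunit below it. The ratio of summed CPM of the large to the small subunit was 1.501, 1.509 and 1.507 in Canton-S, 1.516 and 1.481 in elav5, and 1.547, 1.557 and 1.582 in elav5/fne. The ratio was 1.506 ± 0.004 in Canton-S and 1.562 ± 0.018 in elav5/fne (SD, n = 3), so the double mutant libraries lay above the others by a small margin, while the elav5 libraries lay on both sides of Canton-S. Within the genes of at least 100 CPM, the log2 changes of the double mutant had an SD of 0.13 among 48 large subunit genes and 0.09 among 31 small subunit genes.

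The members lie on all major chromosome arms, and their median changes differed little between arms. In elav5/fne against Canton-S the median log2 change was 0.66 for 17 genes tested on 2L, 0.63 for 19 on 2R, 0.68 for 14 on 3L, 0.70 for 20 on 3R and 0.71 for 14 on the X. RpS3A, the single member on chromosome 4, changed by 0.47. The introns of 28 members hold 74 annotated snoRNA genes, which guide the modification of ribosomal RNA. The 28 host genes had a median change of 0.69 and the 57 tested genes without a snoRNA gene 0.68. Of the 92 members, 30 share exonic bases with another gene, 6 on the same strand and 25 on the opposite strand, and the 28 of them that were tested had a median change of 0.71, against 0.66 for the other 57. The sources used here do not say whether reads were counted by strand.

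The duplicated genes were taken by symbol, those that differ in a final a or b or in -like. This gave 13 sets with 27 members, and in most of them a single gene gave nearly all reads. RpL24-like and RpLP0-like are in these sets by name only, since each is the homolog of an assembly factor. RpL7, RpL10Ab, RpL22, RpL37a, RpS10b, RpS19a and RpS28b each held over 99% of the reads of their sets in every library. Their partners were mostly untested: RpL10Aa had 0 reads in all 8 libraries together, RpL7-like, RpS28a and RpS28-like had 5 reads each, RpL37b 34, RpL22-like 67 and RpS10a 145. RpL22-like, known in flies as a germ line and testis copy, had 43 of its reads in elav5/fne replicate 3 and 15 in elav5 replicate 2, and at most 3 in any other library. RpL37b likewise had 18 of its 34 reads in elav5/fne replicate 3. No gene of these 7 exceeded 2 CPM in a library.

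RpS19b, the low partner of RpS19a, was the single member called lower in the double mutant. RpS19b measured 1.28, 1.33 and 0.92 CPM in the Canton-S libraries, 0.366 and 0.18 CPM in those of elav5 and 0.343, 0.316 and 0.728 CPM in those of elav5/fne, the highest library of either mutant being below the lowest of Canton-S. It passed the filter of 1 CPM only through Canton-S replicates 1 and 2, the genotype in which it was high, so its call among the genes tested is no separate evidence of a fall. With no filter its log2 change was -0.581 in elav5/fne and -0.773 in elav5 (adjusted p = 0.0128 and 0.0218, limma). RpS19b had 35 to 44 reads in each Canton-S library and 6 to 26 in the mutant libraries. It left the test with a filter at a mean of 5 CPM and without Canton-S replicate 1 or 2. Of the other 19 alternatives, the call was lost in 3 for the double mutant, which included leaving out elav5/fne replicate 1 or replicate 2, and in 4 for the single mutant, which included leaving out either elav5 library. RpS19a meanwhile measured 475, 509 and 502 CPM in the Canton-S libraries, 632 and 817 CPM in those of elav5 and 835, 833 and 769 CPM in those of elav5/fne and rose by 0.71 ± 0.10 (SE) in the double mutant. RpS19b is known in flies as a germ line copy. Of the 10 germ line markers, 7 were tested and 6 rose in the double mutant. The 10 summed to 11.6 to 15.4 CPM in Canton-S, 15.6 and 16.0 CPM in elav5 and 64.9 to 79.2 CPM in elav5/fne. Among them, osk, zpg and can were under 1 CPM in every library. The marker bam measured 0.80, 2.03 and 1.16 CPM in Canton-S and 0.72, 0.72 and 1.01 CPM in elav5/fne. A link between these markers and RpS19b was not tested.

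RpS5b, the germ line copy beside RpS5a, measured 18.2, 11.3 and 16.7 CPM in the Canton-S libraries, 10.2 and 12.6 CPM in those of elav5 and 15.7, 15.8 and 14.5 CPM in those of elav5/fne and the Canton-S and double mutant libraries overlapped. Its log2 change was 0.02 ± 0.17 in elav5/fne (SE, adjusted p = 0.929, limma) and -0.38 ± 0.20 in elav5 (SE, adjusted p = 0.204, limma). RpS5a rose over the same libraries, from 706, 799 and 715 CPM in Canton-S to 1276, 1234 and 1240 CPM in elav5/fne. The share of RpS5b in the reads of the pair was 2.06 ± 0.59% in Canton-S, 1.16 ± 0.01% in elav5 and 1.21 ± 0.05% in elav5/fne (SD, n = 3, 2 and 3).

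In elav5, RpLP0-like fell while RpLP0 rose. RpLP0-like is the homolog of a yeast factor that acts in assembly of the stalk and is no part of the mature ribosome. RpLP0-like measured 36.9, 40.8 and 27 CPM in the Canton-S libraries, 18.7 and 19.9 CPM in those of elav5 and 30.4, 27.3 and 25.9 CPM in those of elav5/fne. Both elav5 libraries were below all others, and the double mutant overlapped the lower end of Canton-S. Its log2 change was -0.80 ± 0.17 in elav5 (SE, adjusted p = 0.017, limma), -0.30 ± 0.15 in elav5/fne (SE, adjusted p = 0.124, limma) and 0.51 ± 0.17 between the mutants (SE, adjusted p = 0.0426, limma). The elav5 call was lost without Canton-S replicate 1 or without either elav5 library, with adjusted p from 0.0606 to 0.0657 in limma, and the call between the mutants was lost in 14 of 22 alternatives. RpLP0-like shares exonic bases with Jra on the opposite strand, which stood at 48.2 to 62.5 CPM in Canton-S, 71.98 and 79.9 CPM in elav5 and 90.1 to 100 CPM in elav5/fne.

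RpL24-like, the homolog of a yeast factor of large subunit assembly, rose with RpL24. RpL24-like measured 145, 144 and 156 CPM in the Canton-S libraries, 206 and 249 CPM in those of elav5 and 268, 245 and 239 CPM in those of elav5/fne, a log2 change of 0.75 ± 0.09 in the double mutant and 0.61 ± 0.10 in the single mutant (SE, adjusted p = 2.26e-04 and 0.00796, limma). RpL24 measured 541, 593 and 580.1 CPM in the Canton-S libraries, 693 and 836 CPM in those of elav5 and 918, 891 and 874 CPM in those of elav5/fne.

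In the RpL34 and RpS14 pairs both copies were abundant, and their balance lay apart between Canton-S and the mutants. RpL34b (3R, 9400237 to 9401226, minus strand) measured 367, 379 and 391 CPM in the Canton-S libraries, 508 and 615 CPM in those of elav5 and 666, 639 and 652 CPM in those of elav5/fne, and RpL34a (3R, 26058420 to 26059267, minus strand) measured 83.3, 91.2 and 84 CPM in the Canton-S libraries, 87.9 and 114 CPM in those of elav5 and 124, 116 and 116 CPM in those of elav5/fne. The share of RpL34a in the reads of the pair was 18.5 ± 0.86% in Canton-S, 15.2 ± 0.65% in elav5 and 15.4 ± 0.28% in elav5/fne (SD, n = 3, 2 and 3), and every mutant library lay below every Canton-S library. RpS14a and RpS14b lie side by side on the X (7933742 to 7934677 and 7934898 to 7935792, plus strand). RpS14b measured 73.8, 77.7 and 72.2 CPM in the Canton-S libraries, 102 and 132 CPM in those of elav5 and 137, 125 and 121 CPM in those of elav5/fne. Its share of the pair was 18.1 ± 0.64% in Canton-S, 20.2 ± 0.51% in elav5 and 20.3 ± 0.61% in elav5/fne (SD, n = 3, 2 and 3), and every mutant library lay above every Canton-S library. RpS14a and RpS14b encode near-identical proteins, so the authors' counting could split or lose their reads and the share is uncertain.

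The exact two-sided permutation test cannot go below p = 0.1 for 3 libraries against 3, and cannot go below 0.2 for 3 against 2. Each of RpL34a, RpS14b, RpL24-like, RpLP0-like and RpS5b reached p = 0.1 for its share in elav5/fne against Canton-S by this exact test, and RpS15Ab had p = 0.3. Adjusted by Benjamini-Hochberg over the 18 shares tested, the smallest value was 0.257, so none passed. The share of RpS15Ab overlapped between Canton-S and elav5/fne, at 2.73 ± 0.29% and 2.37 ± 0.17% (SD, n = 3), with 2.12 ± 0.05% in elav5 (SD, n = 2).

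**Figure D4:**
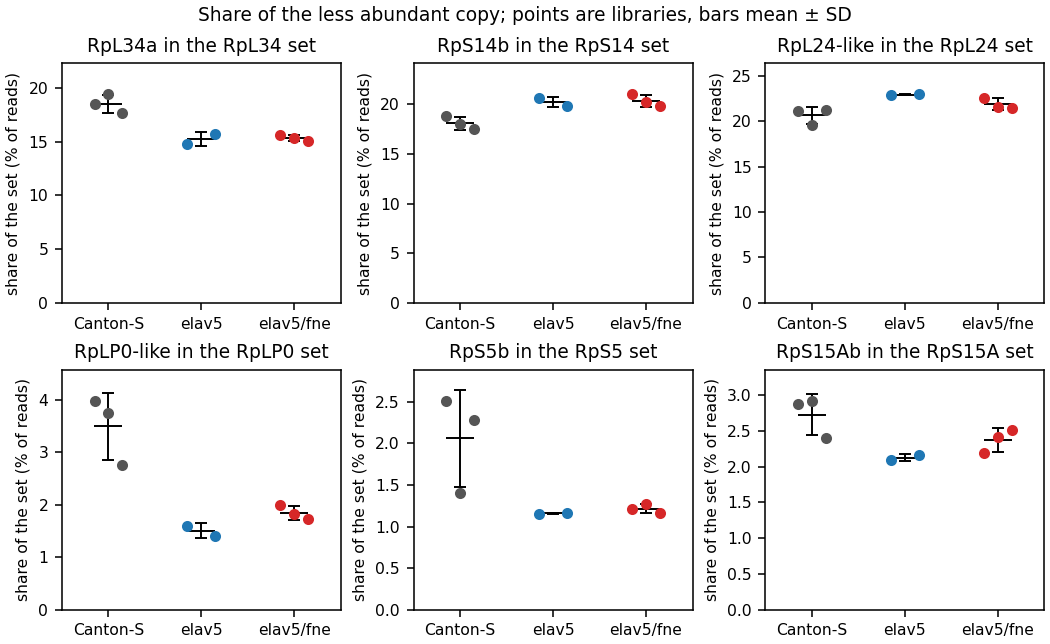
Share of the less abundant gene in the reads of its set, in percent, by genotype, with libraries as points and the mean ± SD as bars, on axes that start at 0. RpL34a lies near 18.5% in Canton-S and near 15% in both mutants, RpS14b lies near 18% and 20%, and RpLP0-like and RpS5b are lower in both mutants.

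The counts of the other genes that build or serve the ribosome are read against all genes tested, of which 32.5% were called higher and 26.7% lower in elav5/fne, and 8.29% and 11.8% in elav5. sta and Rack1, which encode small subunit proteins under other names, rose in the double mutant by 0.69 and 0.59 on the log2 scale (adjusted p = 0.00107 and 0.00143, limma). In the single mutant their log2 changes were 0.38 and 0.32, which were not called (adjusted p = 0.0615 and 0.0764, limma) although both elav5 libraries lay above all Canton-S libraries. The mitochondrial ribosomal proteins went the other way: 60 of 72 tested fell and 0 rose in elav5/fne against Canton-S, with a median log2 change of -0.67, and 21 fell and 0 rose in elav5, with a median of -0.39. At an unadjusted p under 0.05, 0 rose in either mutant, and edgeR and DESeq2 also called 0 higher in both. Without single libraries the number that fell was 50 to 62 in elav5/fne, but in elav5 it was 6, 7 and 12 without Canton-S replicates 1, 2 and 3. In those 3 fits 529 of 10535, 574 of 10528 and 938 of 10550 genes tested were called lower in elav5. The number was also smaller without either elav5 library, which leaves 1. There the share that fell was below that of all genes tested without replicate 1 and above it without replicate 2. mRpL17 measured 26.3, 25.9 and 28 CPM in the Canton-S libraries, 21.6 and 25.4 CPM in those of elav5 and 14.1, 13.9 and 14.2 CPM in those of elav5/fne, a log2 change of -0.88 (adjusted p = 1.28e-04, limma) in the double mutant. mRpS24 and mRpL48 fell by 1.10 and 1.09 on the log2 scale there.

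Factors of ribosome biogenesis, which process ribosomal RNA and assemble the subunits in the nucleolus, fell more often than they rose. Of 32 tested, 16 fell and 3 rose in elav5/fne, with a median log2 change of -0.37, and 23 fell and 1 rose in elav5, with a median of -0.72, so that 50% of the list fell in elav5/fne and 71.9% in elav5, against 26.7% and 11.8% of all genes tested. The number that fell in elav5/fne was 10 without Canton-S replicate 1 and 9 without Canton-S replicate 2. In those fits 2379 of 10535 and 2327 of 10528 genes tested were called lower, so the list was nearer to the share of all genes. In elav5 the number was 13 without Canton-S replicate 1, where 529 of 10535 genes tested were called lower. It was also smaller without either elav5 library, which leaves 1, but still above the share of all genes tested. Nopp140, a nucleolar chaperone of snoRNA particles, measured 162, 183 and 123 CPM in the Canton-S libraries, 69.7 and 55.3 CPM in those of elav5 and 109, 98.7 and 101 CPM in those of elav5/fne, a log2 change of -1.29 in elav5 (adjusted p = 0.00429, limma). wcd, a nucleolar gene of the list, fell in both mutants, by 0.63 in elav5/fne and by 0.83 in elav5 on the log2 scale. Non1, a GTPase of large subunit assembly, rose in the double mutant by 1.12 (adjusted p = 4.44e-05, limma). Between the mutants 13 of the 32, or 40.6% against 26.8% of all genes tested, were higher in the double mutant and 0 lower (0 also at an unadjusted p under 0.05, in edgeR and in DESeq2). When either elav5 library was left out, which leaves 1, fewer of the list were called higher, a share near that of all genes tested. Among the 13 was Fib, the methyltransferase of box C/D snoRNA particles, at 0.84 (adjusted p = 0.00316, limma). Of 8 genes of RNA polymerase I, which transcribes ribosomal RNA, 5 fell and 1 rose in elav5/fne and 4 fell and 0 rose in elav5, where 1 was higher at an unadjusted p under 0.05, edgeR called 0 higher and DESeq2 called 1. Without elav5 replicate 2, 2 of the 8 fell in elav5. RpI135, a core subunit, measured 56.2, 60.5 and 42.5 CPM in the Canton-S libraries, 24.9 and 24.4 CPM in those of elav5 and 35.7, 29.1 and 32.3 CPM in those of elav5/fne, and TAF1B, of its initiation factor, was the gene that rose.

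Of 35 initiation factors tested, 17 rose and 7 fell in elav5/fne, with a median log2 change of 0.22 (48.6% and 20.0% of the list, against 32.5% and 26.7% of all genes tested), and with TMM scaling 9 rose and 8 fell. The number that rose was 10 without Canton-S replicate 1 and 9 without elav5/fne replicate 1. Of all genes tested, 3111 of 10575 were called higher with TMM scaling. Without Canton-S replicate 1 it was 2856 of 10535, and without elav5/fne replicate 1 it was 3326 of 10518. In these fits the share of initiation factors that rose was near or below that of all genes tested. With quantile normalization 15 of the 35 rose, against 2653 of 10575 genes tested, so there the share stayed above it. eIF4EHP, a cap-binding repressor of translation, fell by 1.86 on the log2 scale (adjusted p = 1.06e-06, limma), from 503, 514 and 514 CPM in Canton-S to 139.7, 144 and 134 CPM in the double mutant, with 324 and 336 CPM in elav5. eIF3c and eIF3f1, subunits of the scaffold factor eIF3, rose by 0.67 and 0.84. Of 10 elongation and release factors 5 rose and 2 fell. eEF1alpha1, which delivers tRNA to the ribosome, measured 4139, 4618 and 4203 CPM in the Canton-S libraries, 4578 and 5122 CPM in those of elav5 and 7694, 7510 and 7915 CPM in those of elav5/fne, a log2 change of 0.84 (adjusted p = 4.59e-04, limma). In elav5, 6 initiation factors rose and 4 fell, and 2 elongation and release factors rose and 2 fell, counts that ranged from 4 to 13, 2 to 5, 0 to 2 and 0 to 2 when single libraries were left out, and the share of initiation factors that fell, 11.4%, is near that of all genes tested.

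Genes of growth control rose more often than they fell in the double mutant, 14 against 2 of 22 tested, or 63.6% and 9.09% against 32.5% and 26.7% of all genes tested, with a median log2 change of 0.50, and 4 rose and 2 fell in elav5, where 0 to 5 rose and 1 to 4 fell when single libraries were left out. S6k, the kinase of RpS6, measured 153, 149 and 145 CPM in the Canton-S libraries, 189 and 177 CPM in those of elav5 and 324, 298 and 294 CPM in those of elav5/fne, a log2 change of 1.03 (adjusted p = 8.12e-06, limma). Xrp1, a transcription factor induced in flies with too little of a ribosomal protein, measured 215, 296 and 338 CPM in the Canton-S libraries, 333 and 309.9 CPM in those of elav5 and 911, 744 and 937 CPM in those of elav5/fne, a log2 change of 1.62 (adjusted p = 1.15e-04, limma). The elav5 libraries of Xrp1 lay within the Canton-S range. Tsc1, an inhibitor of TOR, measured 30.5, 29.8 and 30.5 CPM in the Canton-S libraries, 15.7 and 14.7 CPM in those of elav5 and 16.4, 15.2 and 21.6 CPM in those of elav5/fne and fell by 0.95 on the log2 scale in elav5 (adjusted p = 0.00705, limma).

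**Figure D5:**
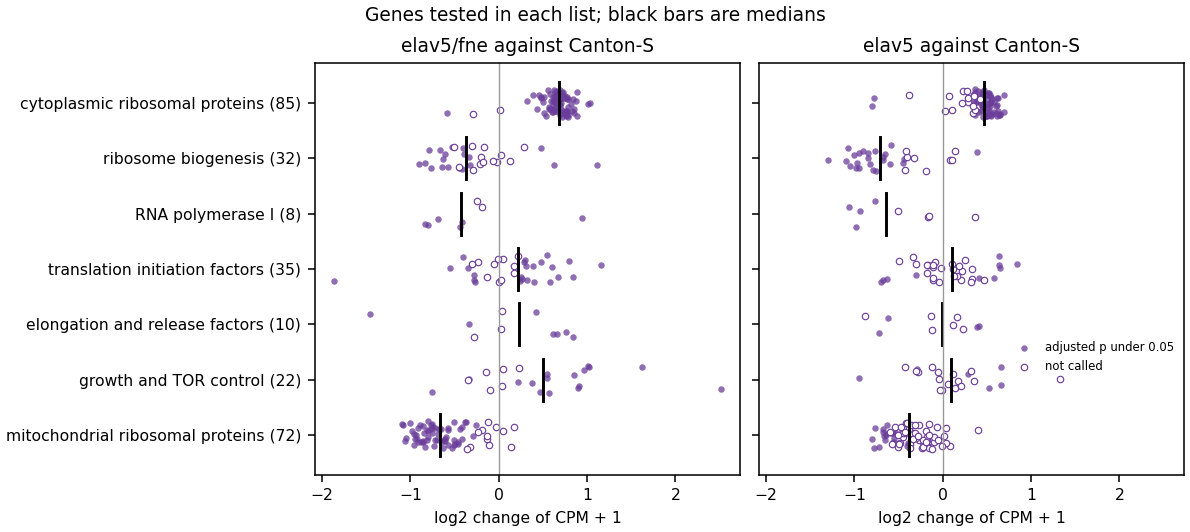
Log2 change of CPM + 1 of each gene tested in the cytoplasmic ribosomal proteins and 6 related lists, for elav5/fne and for elav5 against Canton-S, with filled points for an adjusted p under 0.05 in limma and medians as black bars. The cytoplasmic ribosomal proteins form a tight group at medians of 0.69 and 0.46, while the medians of ribosome biogenesis, RNA polymerase I and mitochondrial ribosomal proteins lie below 0.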

How the data were processed

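Per the submitters' processing notes, the authors aligned reads with HISAT2 to dm6, and the deposited values are CPM per gene. Libraries used a stranded kit and 0.1 µg of total RNA, per the labels' protocols. The read counter, its strand setting and its annotation were not given in the sources used here. Low values were whole multiples of 1 read (100% of values within 0.01), so reads were recovered for the count tools. limma 3.58.1 (R 4.3.3) with a trend was run on log2(CPM + 1), which understates changes of low genes, over all 8 libraries and the 10575 genes with 1 CPM or more in 2 or more libraries. Adjusted p-values are Benjamini-Hochberg over all of these genes, with a threshold of 0.05. The 2 elav5 libraries borrow the spread of the other genotypes. Scripts were tested on simulated data.

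Lengths, positions and overlaps come from Ensembl's BDGP6.54 annotation. The members and lists were chosen with earlier results of these data known. Rrp1, l(3)72Ab and Elf were dropped from the lists after results had been computed, because those symbols name other genes or match several. The list entries Qm, peno, Rlp24, Mrto4, Nol12, Gnl3, TAF1B-like and max found no match and were left out. RpL24-like and RpLP0-like, the genes meant by Rlp24 and Mrto4, are members and so were not counted among the biogenesis factors. Named were all duplicated genes, the 5 highest per kilobase of each subunit, the 5 largest and smallest changes per comparison, members called lower, well-known members, untested members and, per list, up to 3 genes by smallest p. A gene that this rule names is not reported here. Other members given as examples were chosen after their values were seen. Alternatives were edgeR 4.0.16, DESeq2 1.42.0, other filters and scalings, pseudocounts of 0.1 and 5 CPM, a replicate block and fits without single libraries.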

Additional observations from a re-analysis of the deposited data

How the results depend on the processing

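Against Canton-S, the rise in the double mutant kept its count under all 22 alternatives, from 79 to 82 genes called higher. Its median log2 change was 0.607 with median-ratio scaling, 0.608 with TMM, 0.609 in edgeR and 0.627 in DESeq2, and 0.661 to 0.704 without single libraries. The number called lower there was 0 with a filter at a mean of 5 CPM, 2 with quantile normalization, and 0 to 2 without single libraries. In elav5, the number called higher was 41 without a filter, 36 with only the groups compared, and 6 to 78 without single libraries, and the number called lower was 1 with a filter at a mean of 5 CPM and 0 to 2 without single libraries. Between the mutants the number called higher was 5 with median-ratio scaling, 5 with TMM, 33 with quantile normalization, 5 in edgeR, 10 in DESeq2, 6 with only the groups compared, 6 to 76 without single libraries and 77 without both elav5 replicate 2 and elav5fne replicate 3. The number called lower was 1 in DESeq2 and 0 to 4 without single libraries. The cause was not tested. Of all 10575 genes, those called higher between the mutants numbered 2232 with median-ratio scaling, 2279 with TMM and 2056 with quantile normalization. They numbered 2174 in edgeR, 2552 in DESeq2 and 2229 with only the groups compared. In elav5, 925 of 16126 genes were called higher without a filter and 818 of 10575 with only the groups compared. Quantile normalization moved the median of all genes from 0.07 to -0.11 in the double mutant. Between the mutants, the log2 change of RpL38 went from -0.02 to -0.302 without elav5 replicate 1 and 0.262 without elav5 replicate 2, and that of RpL40 from -0.03 to -0.284 without elav5 replicate 1 and 0.227 without both elav5 replicate 2 and elav5fne replicate 3. Over 46 named genes tested, 969 of 1009 recomputed changes kept their side of the threshold in the double mutant, 805 in elav5 and 879 between the mutants.

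Equal replicate numbers did not mark pairs: same-numbered libraries of Canton-S and the double mutant had deviations with r of -0.36, -0.12 and -0.31 across genes, and none of these 6 libraries correlated best with its own number. Between the other pairs of genotypes r was -0.14 to 0.11 for equal numbers. With a replicate block, the genes called higher numbered 81 in the double mutant, 19 in elav5 and 12 between the mutants, and those called lower 0, 1 and 0. The untested second copies had 0 to 145 reads in all and got no test, since they did not reach 1 CPM in 2 libraries. Of these, RpS10a had 21 and 41 reads in elav5 and 7 to 18 in the other libraries. The floors of 3 reads cover counting error only, while the values after ± are the SD between libraries or the SE from limma.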
